A study of Mus musculus with 24 samples.

Results

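The 8 genes described here belong to the unfolded protein response and the integrated stress response: Atf4, Ddit3, Trib3, Asns, Chac1, Hspa5, Xbp1 and Herpud1. They were chosen by name, with earlier results of these data known, and all 8 were found among 20028 genes named on the arrays. They are read by 9 of 55681 probes, 1 probe a gene except for Atf4, which has 2. Each of 24 dual-colour arrays compared RNA of mouse T helper cells, labelled with Cy3, with RNA of naive CD4 cells (CD62L+, CD25-, CD44lo) from lymph nodes and spleens, labelled with Cy5. Cells and reference came from female C57BL/6 mice.

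Naive cells had been differentiated in culture into Th1 or Th2 cells, and each kind was left unstimulated or was reactivated, which gives 4 cell contexts. In every context cells received DMSO, the solvent used as control, JQ1 at 50 or 500 nM, or flavopiridol at 1 or 10 µM, for 6 hr. JQ1 displaces BET proteins from acetylated chromatin, and flavopiridol inhibits the kinase of P-TEFb, which releases paused RNA polymerase II. Th1 cells were also taken at 24 hr with DMSO and with 500 nM JQ1. The labels give 24 hr in one place and 6 hr in another for both Th2 DMSO arrays, so their time is treated as unclear. Each of 24 conditions was measured on 1 array, and how many animals were pooled was not given in the sources used here. Tests therefore treat the 4 contexts, or the 3 DMSO pairs of unstimulated and reactivated cells, as the replicates. Contexts or pairs enter as blocks, so the p-values measure how unevenly a change ran across them, not the spread of levels between them. The drug fits pool both doses, so the arrays of 1 context at both doses count separately.

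Cells answer an overload of unfolded protein in the endoplasmic reticulum (ER) through 3 sensors. IRE1, encoded by Ern1, splices Xbp1 mRNA, ATF6 is cut to give a transcription factor, and PERK, encoded by Eif2ak3, phosphorylates the initiation factor eIF2. PERK shares that last step with kinases that sense amino acid shortage, double-stranded RNA or loss of heme, and together they form the integrated stress response, in which translation falls in general while Atf4 mRNA is translated more. Secretory lymphocytes are known to use the Xbp1 branch as they enlarge their ER. An array of this kind measures mRNA level only, not eIF2 phosphorylation, Xbp1 splicing or protein.

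RefSeq promoter windows, from 250 bases before to 50 bases after the start site (build GRCm38.p6), were found for all 8 genes. They were searched on both strands for the ATF4 site of the C/EBP-ATF kind (CARE, TGATGNAA), the ER stress response element (ERSE, CCAAT and CCACG with 9 bases between), its variant ERSE-II (ATTGG and CCACG with 1 base between) and the unfolded protein response element (UPRE, TGACGTGG). Of 32851 windows in the table, 3.97% hold CARE, 0.119% ERSE, 0.0365% ERSE-II and 0.676% UPRE. At least 1 of these motifs was matched in 5 of the 8 genes, and 4 of the stretches are shown because they set genes with the ATF4 kind of motif beside genes with the ER stress element. Capitals mark the motif, and the coordinates cover the printed stretch, read on the strand of the gene.
Asns, chr6:7693210-7693257, minus strand, CARE: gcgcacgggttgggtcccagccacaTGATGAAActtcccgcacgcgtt
Chac1, chr2:119351024-119351081, plus strand, CARE on the opposite strand: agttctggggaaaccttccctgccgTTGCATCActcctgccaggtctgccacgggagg
Hspa5, chr2:34772000-34772068, plus strand, ERSE: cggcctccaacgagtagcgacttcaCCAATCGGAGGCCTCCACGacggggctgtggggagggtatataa
Herpud1, chr8:94386292-94386412, plus strand, CARE on the opposite strand and then ERSE-II: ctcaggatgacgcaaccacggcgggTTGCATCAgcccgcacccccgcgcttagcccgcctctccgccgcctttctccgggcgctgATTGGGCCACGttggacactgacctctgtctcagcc
The fifth match is a CARE of Trib3 on the opposite strand, TTACATCA, 15 to 22 bases after the start site at chr2:152344039-152344046. In the windows of Atf4, Ddit3 and Xbp1 none of these 4 patterns was matched, which says only that these letters are not there.

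Values are log2 of Cy3 over Cy5, so 0 is the level of the naive reference and 1 is 2-fold above it. The reference channel itself varied little for these genes, with an SD over the 24 arrays of 0.07 to 0.17 on the log2 scale, while the ratios spanned between 2.45 (Asns) and 6.92 (Hspa5). Cy3 was well above background on all 24 arrays for 6 of the genes, on 22 for Trib3 and on 16 for Chac1. Cy5 of Chac1 was not well above background on any array, so its ratios to naive cells are no true level. The labels were checked with lineage genes on the DMSO arrays: Gata3, the Th2 master regulator, had ratios of -0.52 to 0.55 in Th1 and 1.95 and 2.64 in Th2 cells, and Tbx21, which encodes the Th1 regulator T-bet, 5.41 to 6.35 in Th1 cells. In Th2 cells Tbx21 had -0.02 unstimulated and 4.64 reactivated, and Ifng, the Th1 cytokine, 0.65 and 6.2, so the reactivated Th2 DMSO array carries some Th1 transcripts (Cxcr3, at 4.11, is another), while the further Th1 markers Il12rb2 (-0.20) and Il18r1 (-3.73) were low on it. Th2 markers were not particular to Th2 arrays either: on reactivated Th1 arrays Il4 had 3.07 and 4.5, Il13 3.71 and 4.6 and Il1rl1 5.51 and 6.29, beside 8.02, 4.85 and 3.91 on the reactivated Th2 array. Results that use it are given without it where that matters. Between 35.4% and 52% of probes were above background in Cy3.

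Without drug, reactivation raised Hspa5 and Xbp1 of the ER arm and Atf4, Asns and Chac1 of the integrated stress response, and lowered Ddit3 and Trib3. Of the 8 genes, 5 were higher in reactivated than in unstimulated cells and 2 lower (limma, 6 DMSO arrays, pair as block, adjusted p below 0.05), where 21.9% of 12526 genes tested were called higher and 29% lower. The median change was 1.33 for the 8 genes and -0.05 for all genes. All of these changes are relative to the bulk of each array's RNA. With centring on spike-in controls, and with loess ratios shifted to those controls, the median of all genes was 0.22 and 0.27, and 3339 and 4078 genes were called higher and 1800 and 1858 lower, beside 2746 and 3636 here. Fewer expressing cells cannot be told apart from less RNA per cell.

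Hspa5, whose promoter holds the ERSE printed with it, encodes BiP, the main Hsp70 chaperone of the ER lumen and a target of ATF6. Its ratios in unstimulated cells were 0.50 and 0.41 (Th1, 6 and 24 hr) and -0.35 (Th2), and in reactivated cells 2.26, 2.41 and 2.85. The groups did not overlap, and the change of 2.32 ± 0.28 (SE) was 5-fold (adjusted p = 0.00107).
Xbp1, the transcription factor that is spliced by IRE1, had 0.55, 0.75 and 0.82 in unstimulated cells and 2.19, 2.31 and 2.38 in reactivated cells in the same order. The 3 pairs moved almost equally, by 1.64, 1.56 and 1.56, which made it the most even of the 8 responses (1.59 ± 0.12, adjusted p = 0.00029). Herpud1, the gene with an ERSE-II and a CARE, encodes an ER membrane protein that assists degradation and had 0.67, -0.30 and -0.66 unstimulated and 0.77, 0.14 and 0.66 reactivated. Its groups overlapped, and its change of 0.62 did not pass the test (95% interval 0.05 to 1.19, adjusted p = 0.0684). It was called with spike-in centring (0.92, adjusted p = 0.000755), with loess ratios shifted to the spike-ins (0.95, adjusted p = 0.00132) and without the Th1 6 hr pair (0.88, adjusted p = 0.0354), and was 0.27 without the Th2 pair (adjusted p = 0.22).

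Atf4, the transcription factor at the centre of the integrated stress response, moved from 0.76, -0.29 and -0.85 to 1.32, 1.03 and 0.98, a rise of 1.24 ± 0.24 (adjusted p = 0.00629). The unstimulated cells differed among themselves by more than the reactivated ones, whose 3 values lay close together. Asns, the asparagine synthetase gene and a target of ATF4 with a CARE in its window, moved from 5.47, 4.88 and 4.44 to 6.63, 6.07 and 6.38 (1.43 ± 0.19, adjusted p = 0.00145). It was thus far above naive cells before reactivation and higher after it, with no overlap between the states. Its naive channel was dim, though above background on 23 arrays. The median Cy5 was 6.13 on the log2 scale beside 5.86 for Chac1, so the size of these ratios is uncertain. Chac1, which breaks down glutathione, rose by 1.72 ± 0.39 (adjusted p = 0.0113), a ratio that carries the noise of its dim naive channel, and the call was lost with the scanner software's log ratio (1.59, adjusted p = 0.219). By Cy3 alone the 3 pairs differed by 0.61, 1.48 and 2.36 (adjusted p = 0.0156). Its Cy3 signal was at least 5.13-fold above the naive channel in unstimulated cells and at least 16.5-fold in reactivated cells, taking for the dim side the lowest signal counted as above background and reading across dyes that were never swapped.

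The remaining pair of genes moved the other way. Ddit3, which encodes CHOP, a transcription factor of prolonged stress, had 1.09, 0.12 and -0.42 unstimulated and -0.16, -0.91 and -0.65 reactivated. It was lower in each of the 3 pairs although the groups overlapped, and it fell by 0.84 on the log2 scale (SE 0.21, adjusted p = 0.0173). Trib3, a pseudokinase induced by ATF4 and CHOP that restrains ATF4, had 2.88, 2.11 and 1.78 unstimulated and 2.01, 0.60 and 0.12 reactivated, a fall of 1.34 on the log2 scale (SE 0.18, adjusted p = 0.00161). The call for Ddit3 was lost without the Th1 6 hr pair (-0.63, adjusted p = 0.0832) without the Th1 24 hr pair (-0.74, adjusted p = 0.0747) and with loess ratios shifted to the spike-ins (-0.51, adjusted p = 0.071). Without the Th2 pair, which holds the array with Th1 transcripts, the same 7 genes were called, with Hspa5 at 1.88, Chac1 at 1.12 and Ddit3 at -1.14.

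**Figure D1:**
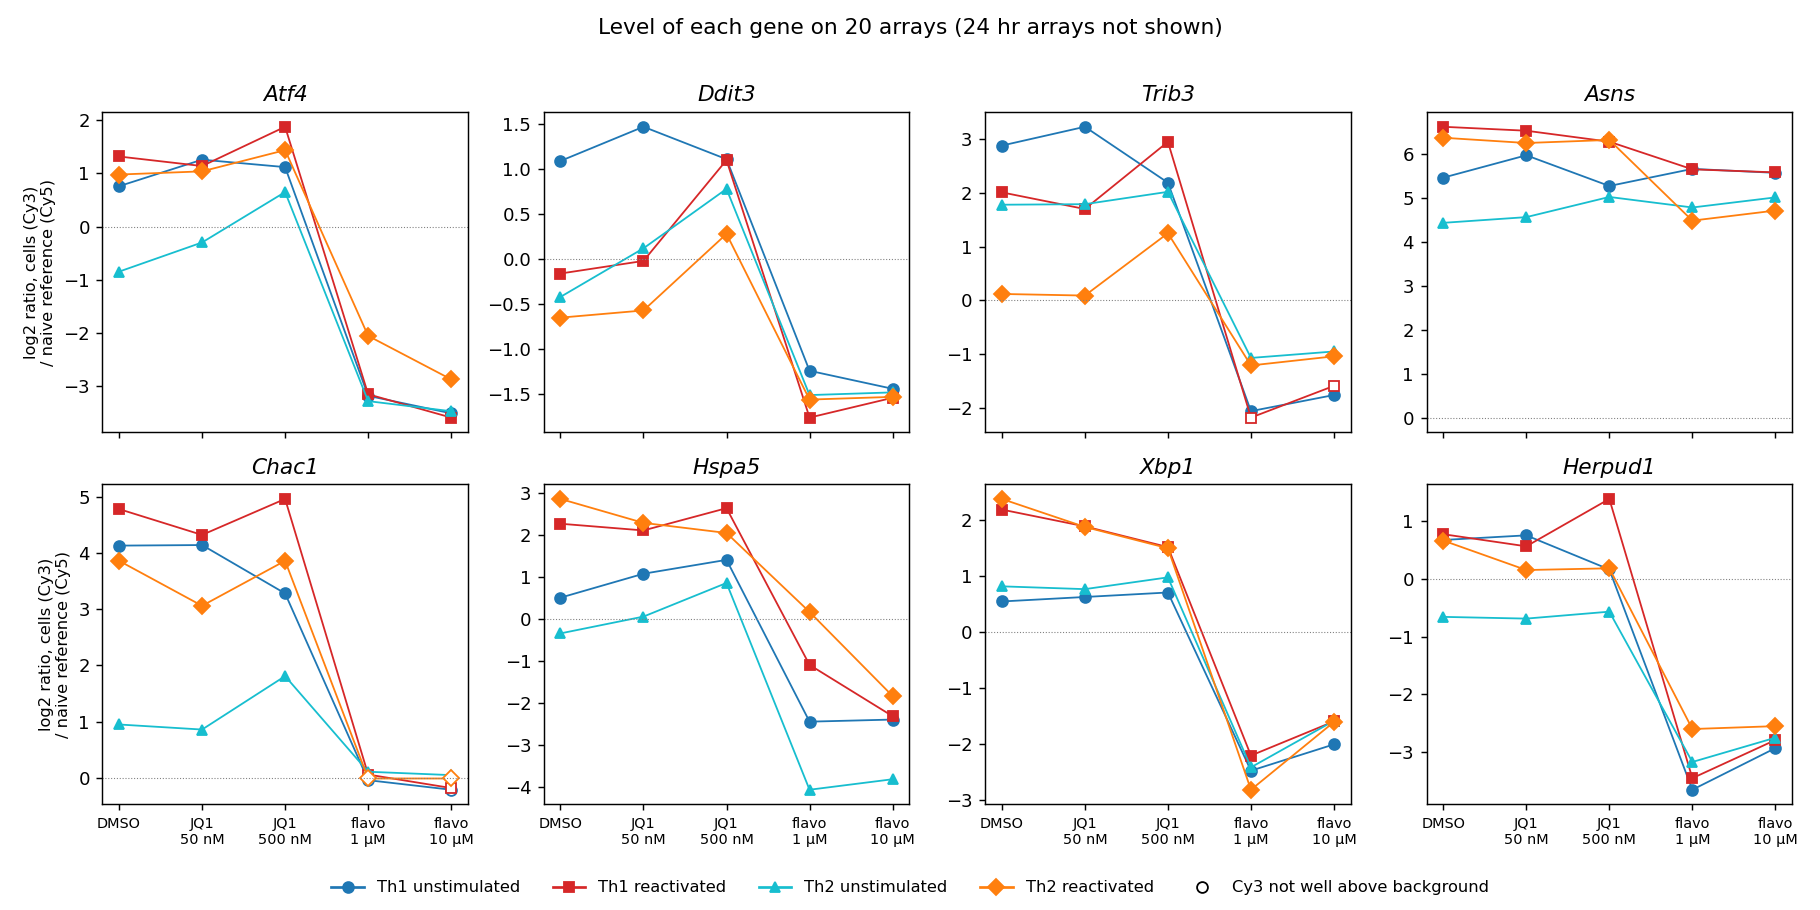
Log2 ratio of each gene (vertical axis, Cy3 of the cells over Cy5 of the naive reference) on the 20 arrays other than the 24 hr ones, by treatment (horizontal axis) and cell context (colour and marker); 1 point is 1 array and an open point marks Cy3 not well above background. Of the 8 genes, 7 drop at both doses of flavopiridol, while Asns stays between 4.49 and 5.67.

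The wider pathway followed in part. Of 114 further genes in 7 lists, 110 were tested and 54 were higher and 10 lower upon reactivation, with a median change of 0.52, beside 21.9% and 29% of all genes. Of 20 ER chaperones and folding enzymes 13 rose and none fell, led by Pdia6, a protein disulphide isomerase (1.35, adjusted p = 0.000724). Of 26 tested genes for amino acid synthesis, transport and tRNA charging, 17 rose and 1 fell. Cth, the enzyme that makes cysteine from cystathionine, rose by 3.58 (adjusted p = 0.000248) and the glutamine transporter gene Slc38a2 fell by 0.53 (adjusted p = 0.04), a call lost with spike-in centring (-0.23, adjusted p = 0.467), under 3 other settings and without the Th1 6 hr (-0.51) or 24 hr pair (-0.36).

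Among 14 genes of the eIF2 kinases, eIF2, its exchange factor eIF2B and the eIF2 phosphatase, 7 rose and 1 fell. The eIF2B subunit gene Eif2b3 rose by 2.1 (adjusted p = 0.000221), and the gene that fell was that of PERK, Eif2ak3, with a change of -1.25 (adjusted p = 0.000818). In the list of ATF4 partners and stress targets 3 of 11 tested genes rose and 3 fell: Atf3, an early stress transcription factor, rose by 2.01 (adjusted p = 0.00106) but had 0.39 with the software's log ratio (adjusted p = 0.402), and Ddit4, an inhibitor of mTORC1 signalling, fell by 3.57 (adjusted p = 0.000232). Of 9 ER stress sensors and processing genes 4 rose and 1 fell, from Creb3l2 at 2.32 (adjusted p = 0.000689) to Creb3 at -0.56 (adjusted p = 0.0264), 2 transcription factors that are anchored in the ER membrane. The call of Creb3 was lost under 5 other settings, such as spike-in centring (-0.28, adjusted p = 0.368), and without the Th1 24 hr pair (-0.39) or the Th2 pair (-0.58). Of ER-associated degradation genes 6 of 18 were higher and 4 lower, not far from the shares over all genes. The lectin gene Erlec1 fell by 0.99 (adjusted p = 0.00466). Of 12 genes of ER translocation 4 rose and none fell, with Sec61a1, the channel subunit, at 1 (adjusted p = 0.00152).

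Flavopiridol lowered 7 of the 8 genes at each dose. At 10 µM none was called higher and 7 were called lower than with DMSO, where 15.4% of 12425 genes were called higher and 33.5% lower (limma, 12 arrays, context as block). At 1 µM the count was also 7 lower, against 16.2% of all genes higher and 35.5% lower. The median change of the 8 genes was -3.15 at 10 µM and -3.36 at 1 µM, beside -0.22 and -0.24 over all genes. At 10 µM 1910 genes were called higher and 4164 lower, which became 284 and 8289 with median centring, 26 and 11227 with spike-in centring and 169 and 8966 with a spike-in shift.

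Atf4 was lower by 3.92 ± 0.34 at 10 µM, a 15.2-fold difference (adjusted p = 5.71e-05). Its ratios at 10 µM were -3.52 and -3.60 in unstimulated and reactivated Th1 cells and -3.48 and -2.88 in Th2 cells, and at 1 µM -3.19, -3.16, -3.29 and -2.06 in that order. All 8 flavopiridol arrays lay below the lowest DMSO value of -0.85. This is the reading of the brighter of its probes. The dimmer probe, which carries the same accession, had 0.26, 0.45, -0.07 and 0.90 at 10 µM and 0.39, 0.34, 0.05 and 0.38 at 1 µM, within the range of its DMSO values of -0.38 to 1.64. By that probe the change was -0.63 (SE 0.28, adjusted p = 0.0895) at 10 µM, so the fall of Atf4 rests on 1 of 2 probes. Over the 16 arrays without flavopiridol the probes moved together (Pearson r = 0.95, a description over arrays that share a reference and a platform), and over all 24 less so (r = 0.76). The reason was not tested.

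**Figure D2:**
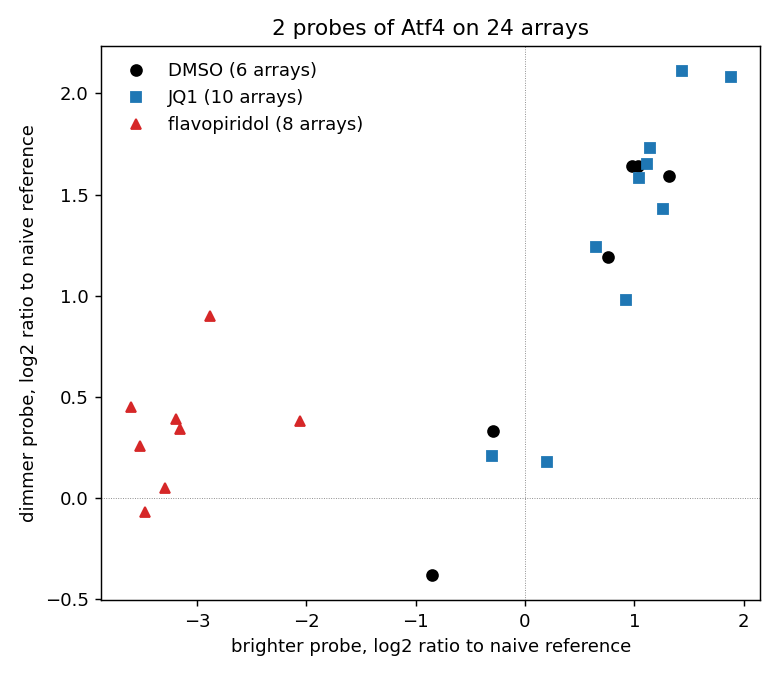
Log2 ratio to the naive reference of the brighter probe (horizontal axis) and the dimmer probe (vertical axis) of Atf4 on 24 arrays, 1 point an array, with DMSO, JQ1 and flavopiridol arrays marked by colour and shape. DMSO and JQ1 arrays lie along 1 line, and the 8 flavopiridol arrays lie apart, low on the brighter probe and between -0.07 and 0.90 on the dimmer one.

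Hspa5 was lower by 3.91 ± 0.36 at 10 µM (15-fold, adjusted p = 7.23e-05), with ratios of -2.40 and -2.32 in Th1 and -3.82 and -1.84 in Th2 cells, unstimulated before reactivated. Xbp1 was lower by 3.18 ± 0.34 (9.05-fold, adjusted p = 0.000144), at -2, -1.59, -1.58 and -1.60 in the same order. Herpud1 was lower by 3.11 ± 0.29 (8.66-fold, adjusted p = 7.89e-05), at -2.93, -2.79, -2.75 and -2.55. For these 3 genes every array at 10 µM was below every DMSO array, and the values of Xbp1 and Herpud1 lay within 0.5 of each other across contexts while those of Hspa5 did not.

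The genes of the ATF4 arm fell too, apart from Asns. Ddit3 was lower by 1.46 ± 0.26 (2.75-fold, adjusted p = 0.00175) and reached nearly the same ratio in every context, -1.44, -1.54, -1.48 and -1.53. Trib3 was called lower (adjusted p = 0.00173), at -1.76, -0.95 and -1.04 in unstimulated Th1, unstimulated Th2 and reactivated Th2 cells against 2.88, 1.78 and 0.12 with DMSO. In reactivated Th1 cells Trib3 was not well above background at either dose, so no fold over the 4 contexts is given, and its signal there was at least 19.7-fold lower at 1 µM and at least 14.2-fold lower at 10 µM than with DMSO. Chac1 was not well above background on any flavopiridol array. Its signal was at least 8.14-fold lower at 1 µM and at least 7.98-fold lower at 10 µM than the mean of the 4 DMSO arrays (adjusted p = 0.00168 and 0.0016).

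Asns, which like Chac1 has a CARE, did not follow. It had 5.58, 5.59, 5.02 and 4.72 at 10 µM and 5.67, 5.66, 4.79 and 4.49 at 1 µM, against 5.47, 6.63, 4.44 and 6.38 with DMSO. The difference from DMSO was -0.50 at 10 µM (95% interval -1.34 to 0.34, adjusted p = 0.29). Its level stayed above that of naive cells by at least 4.49 on every one of these arrays, with the naive channel not above background on 1 array, that of unstimulated Th2 cells at 10 µM. By Cy3 alone reactivated cells differed from unstimulated ones by 0.12 in Th1 and 0.14 in Th2 cells at 10 µM. Each array was scaled to its own bulk of RNA here. With centring on each array's median or on spike-in controls, where the median of all genes was itself -1.05 and -1.64, Asns was called lower by flavopiridol (-1.7 and -2.29) and the other 7 genes stayed called lower. With the scanner software's log ratio the sign of Asns turned, at 0.53 (adjusted p = 0.339).

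Between 10 and 1 µM 0 of the 8 genes were called, where Chac1 on all arrays and Trib3 in reactivated Th1 cells were not well above background at either dose, and where 1.51% of genes were called higher and 0.378% lower. A missing call does not show that the doses act alike. Of the 8, 1 had an unadjusted p below 0.05, with limma as the only tool run. It was Xbp1, higher at 10 than at 1 µM by 0.78 (95% interval 0.01 to 1.55, adjusted p = 0.423). No flavopiridol array shared a slide with its own DMSO control, but both slides with flavopiridol arrays also hold arrays without it, of the other cell type and partly of another time. On slide 2 Hspa5 had 0.05 to 2.28 without and -2.45 to -1.1 with flavopiridol, and on slide 3 0.41 to 2.41 without and -4.07 to 0.16 with it, so for Hspa5 the arrays did not overlap within a slide. With slide as a random block 7 genes were called lower at 10 µM, as they were without any 1 array, the reactivated Th2 DMSO array included.

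In the pathway lists flavopiridol at 10 µM left 13 of 110 tested genes higher and 44 lower, beside 15.4% and 33.5% of all genes. The list of ATF4 partners and stress targets had 8 of 11 lower and none higher, with Ddit4 at -4.11 (adjusted p = 0.0205). The Ddit4 call was lost with slide as a random block (adjusted p = 0.0861) and without any of 5 arrays (values over all 12 from -5.59 to -2.99). Of 14 genes around eIF2, 9 were lower and 1 higher: Eif2s2, the beta subunit, fell by 2 on the log2 scale (adjusted p = 0.00115) and Eif2s3x, a gamma subunit, rose by 0.89 (adjusted p = 0.00687). Of 9 ER stress sensor genes 6 were lower and none higher, with Creb3l2 at -2.46 (adjusted p = 0.00318). The ubiquitin ligase gene Syvn1 fell by 2.55 on the log2 scale (adjusted p = 2.35e-05), the largest fall among ER-associated degradation genes, of which 6 of 18 were lower, about the share over all genes, and Os9, a lectin, was the 1 that was higher (0.71, adjusted p = 0.0128).

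The lists of ER structure were mixed. Of 20 chaperones and folding enzymes 6 were higher and 4 lower, with a list median of 0.07. Pdia3, a disulphide isomerase, rose by 1.12 (adjusted p = 0.000147) and Txndc11, a thioredoxin-domain protein, fell by 1.87 (adjusted p = 0.000369). ER translocation had 4 of 12 higher and 2 lower, from Spcs3 of the signal peptidase at 1.2 (adjusted p = 0.000399) to Sec62 of the translocon at -1.84 (adjusted p = 5.87e-05). Of 26 genes of amino acid supply 9 were lower and 1 higher: Slc38a2 changed by -2.4 (adjusted p = 0.000957) and Shmt2, the mitochondrial serine hydroxymethyltransferase, rose by 1.17 (adjusted p = 0.0135). The rises of Pdia3, Spcs3, Shmt2, Os9 and Eif2s3x depended on scaling: none was called higher with centring on the array median (-0.05, -0.06, -0.08, -0.14 and -0.45, all but the last within their SE of 0) or with loess ratios shifted to the spike-ins (0.16, 0.25, 0.22, -0.24 and -0.07). With spike-in centring, where the median of all genes was -1.64, Os9 (-0.72, adjusted p = 0.0293) and Eif2s3x (-1.04, adjusted p = 0.0188) were called lower. With slide as a random block Shmt2 (adjusted p = 0.0683) and Os9 (adjusted p = 0.0639) were not called.

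**Figure D3:**
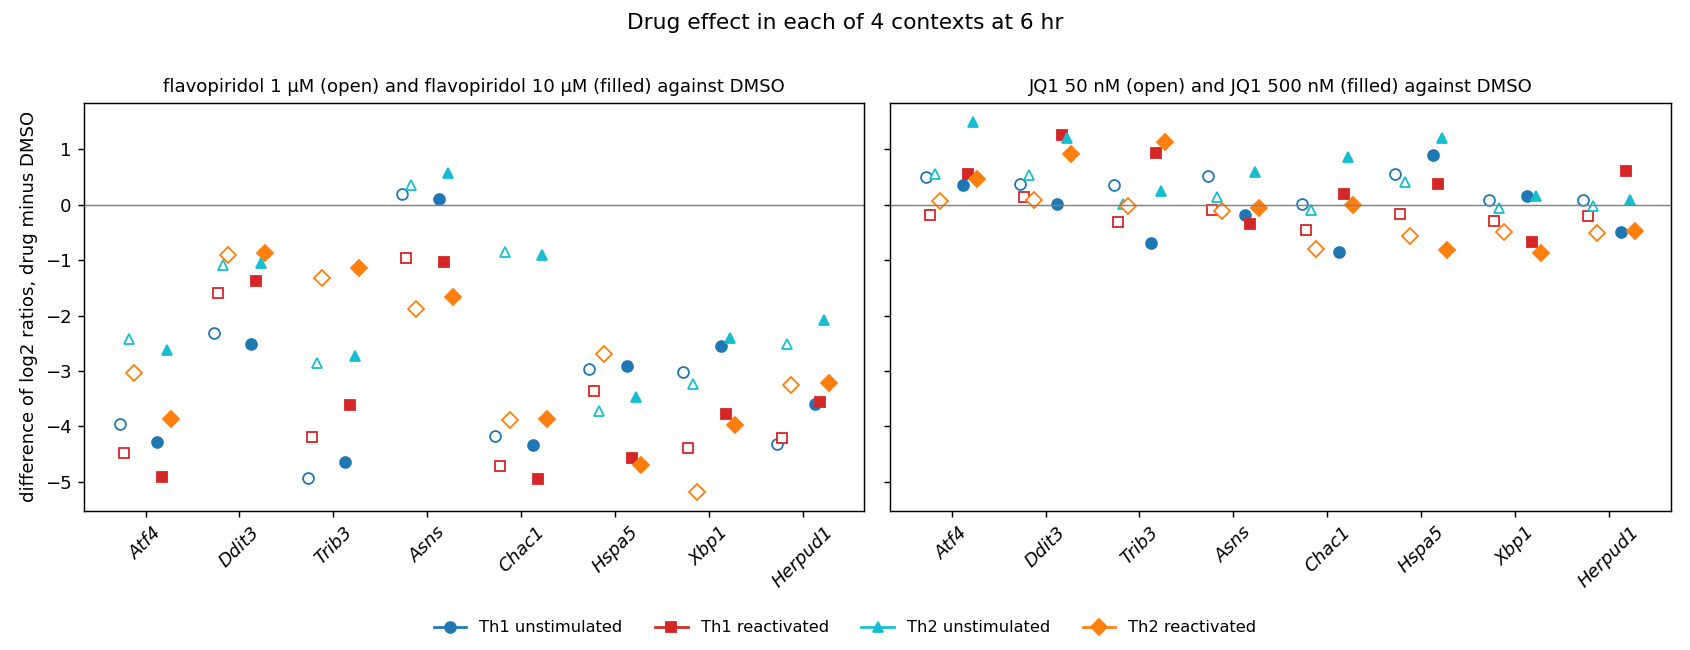
Difference of log2 ratios between each drug array and the DMSO array of the same context (vertical axis) for 8 genes (horizontal axis), with flavopiridol at left and JQ1 at right; open points are the lower dose, filled points the higher, and colour and marker give the context. At 10 µM flavopiridol the differences of Atf4 run from -4.92 to -2.63 and those of Asns from -1.66 to 0.58, Chac1 has no signal above background with flavopiridol, and at 500 nM JQ1 those of Ddit3 run from 0.02 to 1.26.

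JQ1 moved few of these genes past the test. At 500 nM, 2 of the 8 were called higher and none lower, where 17.7% of 12905 genes were called higher and 29.9% lower (limma, 12 arrays, context as block). Both belong to the integrated stress response, as do Trib3, Asns and Chac1, which were not called. The count is not far from the share over all genes, so it says little about the 8 as a set. Atf4 rose by 0.72 ± 0.18 (1.65-fold, adjusted p = 0.00839), with differences from DMSO of 0.36 and 0.56 in unstimulated and reactivated Th1 cells and 1.5 and 0.46 in Th2 cells. Ddit3 rose by 0.85 ± 0.20 (1.8-fold, adjusted p = 0.00609), with 0.02, 1.26, 1.20 and 0.92.

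The sign was the same in all 4 contexts for both genes, and for Atf4 by both probes (0.46, 0.49, 1.63 and 0.47 by the dimmer one). Only the Th1 values come from the slide of their own control. In unstimulated Th1 cells Ddit3 was almost unchanged, at 1.09 with DMSO, 1.47 with 50 nM and 1.11 with 500 nM JQ1. Atf4 there had 1.26 at 50 nM and 1.12 at 500 nM by its brighter probe, and 1.43 and 1.65 by the dimmer one. Over all genes 2281 were called higher and 3859 lower, which became 736 and 5817 with median centring, 96 and 5080 with spike-in centring and 83 and 4644 with a spike-in shift. With median centring the call of Atf4 was lost (0.46, adjusted p = 0.0571) and Xbp1 (-0.60, adjusted p = 0.0178) and Herpud1 (-0.41, adjusted p = 0.0469) were called lower. With centring on the spike-in controls, where the median of all genes was -0.55, the calls of Atf4 (0.18, adjusted p = 0.595) and Ddit3 (0.23, adjusted p = 0.492) were lost and Xbp1 and Herpud1 were called lower (-0.87 and -0.68). Both calls were also lost without the context block, with the same changes and larger SE (0.49 and 0.46).

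The others did not pass the test in the mean over contexts. Asns differed by 0 (95% interval -0.37 to 0.37), Chac1 by 0.05 (-0.53 to 0.62), Herpud1 by -0.07 (-0.49 to 0.35), Xbp1 by -0.31 (-0.66 to 0.05), Hspa5 by 0.41 (-0.15 to 0.97) and Trib3 by 0.41 (-0.27 to 1.08). For each of these 6 genes the mean covers values of opposite sign. In unstimulated and reactivated Th1 and then Th2 cells, Chac1 differed by -0.85, 0.19, 0.86 and 0, Herpud1 by -0.50, 0.61, 0.09 and -0.47, Xbp1 by 0.16, -0.67, 0.16 and -0.88 and Asns by -0.19, -0.34, 0.59 and -0.05. Trib3 was higher by 0.93 and 1.13 in reactivated Th1 and Th2 cells and differed by -0.69 and 0.25 in unstimulated ones. Hspa5 was higher by 0.89 and 1.20 in unstimulated cells and differed by 0.38 and -0.82 in reactivated ones. Without the reactivated Th2 DMSO array Hspa5 was called higher (0.72, adjusted p = 0.0142), as it was without the reactivated Th2 500 nM array (0.72, adjusted p = 0.0153). Trib3 was called higher without the unstimulated Th1 500 nM array (0.83, adjusted p = 0.00583), and Xbp1 lower without the unstimulated Th2 500 nM array (-0.44, adjusted p = 0.0446).

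At 50 nM none of the 8 genes was called, with limma as the tool, 0 at an unadjusted p below 0.05 and no other tool run, and few genes of any kind were, with 0.256% higher and 0.0852% lower. The changes ran from -0.34 for Chac1 to 0.28 for Ddit3. Between 500 and 50 nM the test called none of the 8, where 10.7% of genes were called higher and 20.6% lower. Here 2 had an unadjusted p below 0.05: Ddit3 at 0.57 (adjusted p = 0.0576) and Atf4 at 0.49 (adjusted p = 0.0684). Over the other settings Ddit3 ran from -0.04 to 0.70 and Atf4 from -0.09 to 0.55.

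In the lists JQ1 at 500 nM called 18 of 110 genes higher and 27 lower, near the shares over all genes of 17.7% and 29.9%, and their median change of -0.07 was that of all genes. The counts that follow are descriptions of each list. Ern1, the IRE1 gene, rose by 1.02 (adjusted p = 1.53e-05) in a list of 9 sensor genes with 2 higher and 1 lower, the latter Atf6b at -0.62 (adjusted p = 0.0133). ATF4 partners and stress targets had 3 higher and 2 lower, led by the stress-induced Sesn2 at 0.73 (adjusted p = 0.0017) and by Nupr1 at -0.75 (adjusted p = 0.0172). Genes around eIF2 had 2 higher and 2 lower, with the phosphatase subunit gene Ppp1r15a at 0.53 (adjusted p = 0.0157) and the kinase gene Eif2ak2 (PKR) at -0.97 (adjusted p = 0.000781).

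Of the amino acid genes 3 were higher and 7 lower, from the transporter gene Slc7a5 at 0.75 (adjusted p = 0.00331) to the threonyl-tRNA synthetase gene Tars1 at -0.78 (adjusted p = 0.000386). ER chaperones and folding enzymes split into 5 higher and 5 lower, with Txndc11 at 0.76 (adjusted p = 0.000189) and Hspa13, another Hsp70 family member, at -0.96 (adjusted p = 7.84e-06). Degradation genes split into 3 higher and 4 lower, with Herpud2 at 0.46 (adjusted p = 0.00062) and Selenos at -0.50 (adjusted p = 0.0188). Translocation genes had 6 of 12 lower and none higher, led by Spcs1 of the signal peptidase at -0.90 (adjusted p = 2.66e-05). None of the 6 rises named here was called with spike-in centring, where Ern1 had 0.43, Slc7a5 0.14, Txndc11 0.13 and Sesn2 0.10, and where Herpud2 and Ppp1r15a turned negative (-0.13 and -0.09). Without the context block, of the 13 genes named here, Txndc11 and Spcs1 were called and the other 11 were not, with adjusted p from 0.0784 (Hspa13) to 0.595 (Tars1). Calls were also lost without single arrays, for Selenos and Ppp1r15a without any of 4, for Nupr1 of 3 and for Atf6b of 2.

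Set directly against each other, the higher doses of the drugs differed for 7 of the 8 genes, all lower with flavopiridol than with JQ1, where 22.9% of 13109 genes were called higher and 33.9% lower (limma, 20 arrays). Atf4, by its brighter probe, differed by -4.64 ± 0.31 (adjusted p = 1.3e-08), Hspa5 by -4.32 ± 0.36 (adjusted p = 1.23e-07) and Ddit3 by -2.31 ± 0.27 (adjusted p = 3.42e-06). Over the other settings, the dimmer probe among them, Atf4 stayed called lower but ran from -5.2 to -1.38. Asns differed by -0.50 (95% interval -1.25 to 0.24, adjusted p = 0.233). The inhibitors are of unlike structure and were used at unlike doses, so these values describe the doses used.

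The drug effect differed between unstimulated and reactivated cells for 4 of the 8 genes. For flavopiridol at 10 µM the effect in reactivated cells minus that in unstimulated cells was below 0 for 3 genes, none being above, where 8.91% of genes were called higher and 6.94% lower. The values were -1.69 ± 0.34 for Asns (adjusted p = 0.019, and -1.64 by Cy3 alone), -1.41 ± 0.31 for Xbp1 (adjusted p = 0.024) and -1.44 ± 0.36 for Hspa5 (adjusted p = 0.0365). For JQ1 at 500 nM, 1 gene was called higher and 2 lower, where 4.5% of genes were called higher and 5.64% lower. Xbp1 had -0.93 ± 0.14 (adjusted p = 0.0056), Hspa5 -1.27 ± 0.32 (adjusted p = 0.0368) and Trib3 1.25 ± 0.33 (adjusted p = 0.043). Of these 6 calls, that of Xbp1 under JQ1 held without any 1 of the 12 arrays, and each of the others was lost without at least 5 of them in turn. With median and spike-in centring the 3 flavopiridol calls were lost to larger errors while the values stayed alike, at -1.57 and -1.93 for Asns, -1.07 and -1.43 for Hspa5 and -1.15 and -1.51 for Xbp1. With a spike-in shift after loess, where the median of all genes was -1.28 for the JQ1 effect by state, the value of Trib3 was -0.01. Without the reactivated Th2 DMSO array, which carries Th1 transcripts, the calls of Hspa5 (-1.58, adjusted p = 0.0512) and Xbp1 (-1.16, adjusted p = 0.0533) under flavopiridol and of Trib3 (1.13, adjusted p = 0.152) and Hspa5 (-0.86, adjusted p = 0.147) under JQ1 were lost.

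The same values can be read as reactivation responses. Xbp1 was higher in reactivated cells by 1.64 in Th1 and 1.56 in Th2 cells with DMSO, by 1.27 and 1.11 with 50 nM JQ1, and by 0.81 and 0.52 with 500 nM. With flavopiridol the difference was 0.27 and -0.40 at 1 µM and 0.40 and -0.02 at 10 µM. The order by JQ1 dose was the same in Th1 and Th2 cells, and the 24 hr Th1 pair had 1.56 with DMSO and 0.72 with 500 nM JQ1.

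Hspa5 was higher by 1.75 and 3.21 with DMSO and by 1.24 and 1.19 with 500 nM JQ1. It was also higher in reactivated cells with 1 µM flavopiridol, by 1.35 in Th1 cells (from -2.45 to -1.1) and by 4.23 in Th2 cells (from -4.07 to 0.16). Of 13333 genes 1.33% were at least 2-fold higher in that Th1 pair of arrays, as were 3.63% of 13338 in that Th2 pair. Atf4 was higher by 1.23 in that Th2 pair, by 0.33 with its dimmer probe, and Ddit3, Asns, Xbp1 and Herpud1 differed by -0.52 to 0.56 in both pairs. At 10 µM the difference was 0.09 in Th1 and 1.99 in Th2 cells. These are single pairs of arrays, and no test of this response was made at 1 µM.

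Trib3 differed by -0.87 and -1.66 between reactivated and unstimulated cells with DMSO, and by 0.76 and -0.78 with 500 nM JQ1. In reactivated Th1 cells it had 2.01 with DMSO, 1.70 with 50 nM and 2.95 with 500 nM JQ1, and in reactivated Th2 cells 0.12, 0.09 and 1.25. At 24 hr this was not seen: in reactivated Th1 cells Trib3 had 0.60 with DMSO and -0.50 with JQ1.

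**Figure D4:**
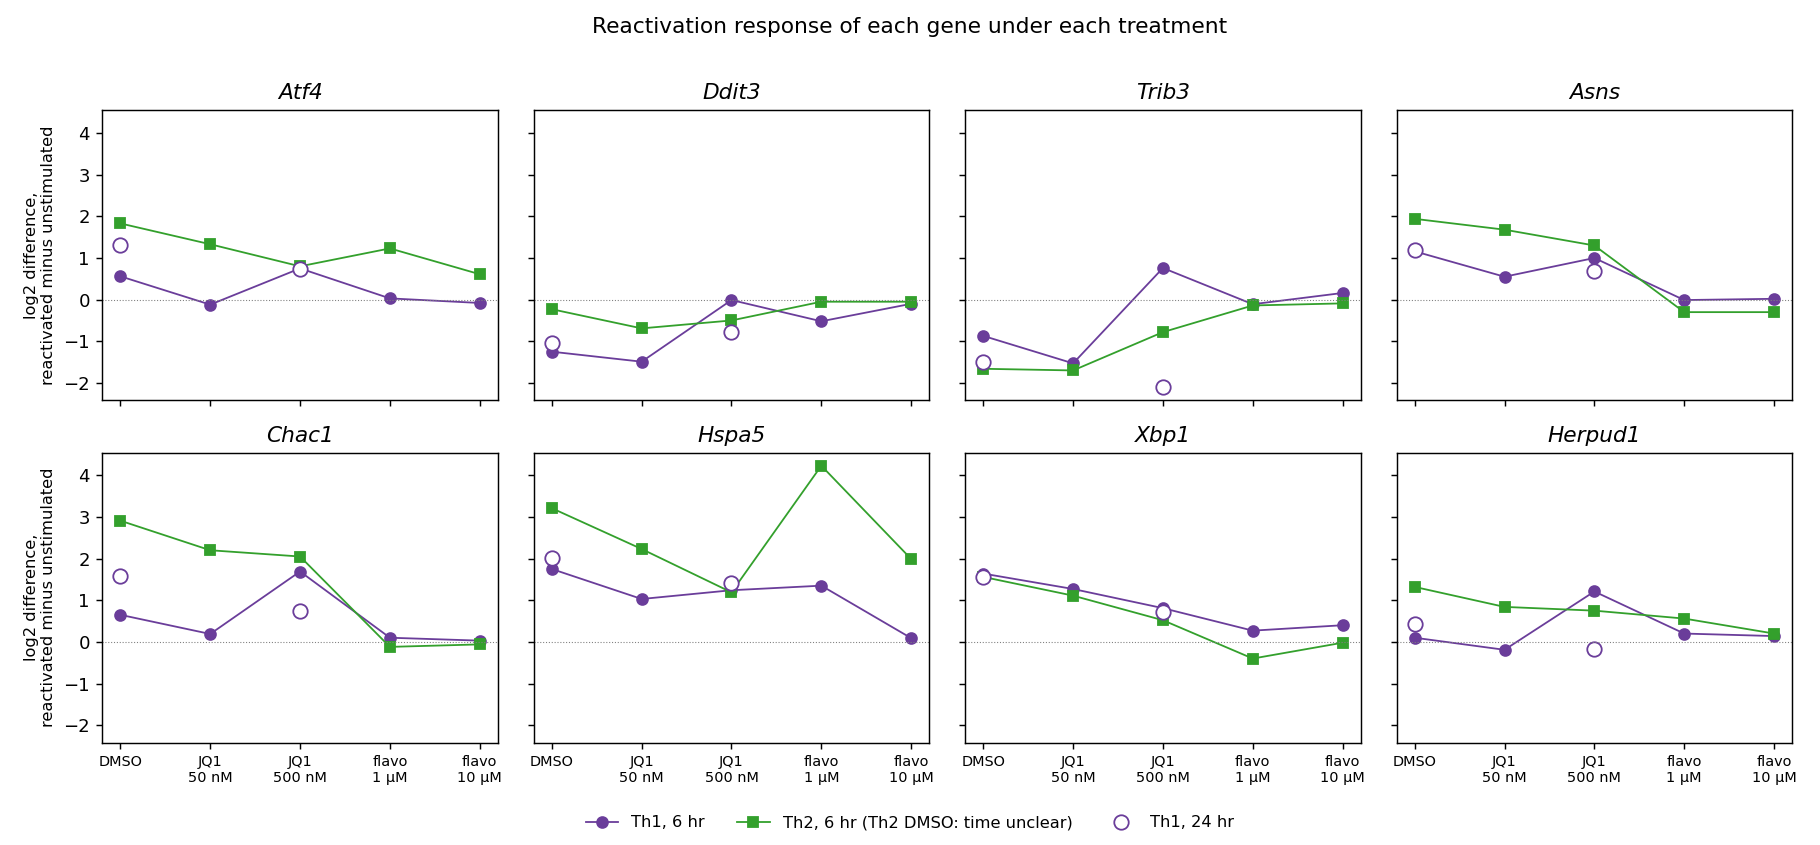
Log2 difference between reactivated and unstimulated cells (vertical axis) for each gene under each treatment (horizontal axis), in Th1 and Th2 cells (colour); filled points are 6 hr pairs, with the Th2 DMSO time unclear, open points the Th1 24 hr pairs, and each point is 1 pair of arrays. The response of Xbp1 shrinks from 1.64 and 1.56 to 0.81 and 0.52 at 500 nM JQ1, and that of Hspa5 is 1.35 and 4.23 at 1 µM flavopiridol, where Chac1 has no signal above background.

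The unstimulated Th1 DMSO array at 6 hr had higher values than the unstimulated Th2 DMSO array for 7 of these genes, without a replicate for either. Of all genes in this pair of arrays 3.76% were at least 2-fold higher and 2.85% at least 2-fold lower. The differences were 3.18 for Chac1 (2.83 by Cy3 alone), 1.61 for Atf4, 1.51 for Ddit3, 1.33 for Herpud1, 1.1 for Trib3, 1.03 for Asns and 0.86 for Hspa5, and -0.27 for Xbp1. For Atf4 the second probe gave 1.58. After reactivation the differences were 1.90 for Trib3 and 0.91 for Chac1 and between -0.60 and 0.49 for the other 6. The DMSO arrays may not match in time. Against the Th1 DMSO array at 24 hr, a comparison added after seeing the data, the unstimulated differences had the same signs and were smaller for all 8 genes, at 1.17 for Chac1, 0.76 for Hspa5, 0.56 for Atf4, 0.54 for Ddit3, 0.44 for Asns, 0.36 for Herpud1, 0.33 for Trib3 and -0.07 for Xbp1. After reactivation they were 0.48 for Trib3, -0.14 for Chac1 (0.09 by Cy3 alone) and between -0.52 and 0.05 for the other 6.

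The unstimulated 6 hr arrays with JQ1 match in time, though the Th1 and Th2 arrays lie on different slides. At 50 nM the differences were 3.28 for Chac1, 1.56 for Atf4, 1.44 for Herpud1 and for Trib3, 1.41 for Asns, 1.35 for Ddit3, 1.02 for Hspa5 and -0.14 for Xbp1, close to those between the DMSO arrays with Th1 at 6 hr. At 500 nM they had the same signs and were smaller for the 7 genes other than Xbp1 (-0.27), with 1.46 for Chac1 and 0.16 to 0.73 for the other 6. B cell markers also differed with lineage: the summed Cy3 signal of 4 B cell markers was 1060 to 1410 on Th1 and 3510 to 4730 on Th2 DMSO arrays. That of 4 plasma cell markers was 510 to 640 and 1920 to 2180, but these genes did not move together. Jchain had ratios of 0.19 to 0.75 on Th1 and 3.22 on both Th2 DMSO arrays. Prdm1 had 0.09 to 0.90 on Th1 and 0.13 and -0.13 on Th2 arrays. Sdc1 had 0.12 to 2 on Th1 and 0.24 and 2.46 on Th2 arrays, and Tnfrsf17 was not above background on any array. Their part in the result was not tested.

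No effect of a drug was called different between Th1 and Th2 cells. For flavopiridol at 10 µM, 0 of the 8 genes passed, with limma and no other tool, 4 had an unadjusted p below 0.05 (Atf4, Ddit3, Herpud1 and, with a value resting on background, Trib3), and 0% of all genes were called higher and 0.0161% lower in Th1 than in Th2 cells. Atf4 had -1.36 ± 0.44 (adjusted p = 0.293). Chac1 has no level with flavopiridol and Trib3 none in reactivated Th1 cells, so no such difference is given for them. For JQ1 at 500 nM no gene of the 8 passed, none had an unadjusted p below 0.05 and 0% of all genes were called in either direction. The intervals were wide, such as -2 to 2.15 for Asns under flavopiridol. For each drug the treated Th1 and Th2 arrays of these fits lie on different slides, so cell type and slide cannot be told apart in these effects.

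Prolonged JQ1 was seen in Th1 cells only, on 1 array per condition. At 24 hr, 500 nM JQ1 differed from DMSO in reactivated cells by -1.89 for Chac1, -1.20 for Asns, -1.1 for Trib3, -1.02 for Xbp1, -0.65 for Herpud1, -0.28 for Hspa5 and 0.51 for Ddit3. In unstimulated cells the differences were -1.03 for Chac1, -0.70 for Asns, -0.51 for Trib3, -0.18 for Xbp1, -0.04 for Herpud1, 0.31 for Hspa5 and 0.25 for Ddit3. Over the genes measured in the reactivated pair, 3.25% were at least 2-fold higher and 4.39% at least 2-fold lower. Atf4 itself differed by -0.11 in reactivated and 0.48 in unstimulated cells, and by -0.65 and -0.15 with its dimmer probe. From 6 to 24 hr with JQ1, reactivated cells changed by -3.44 for Trib3 and -3.14 for Chac1, against -1.41 and -1.06 with DMSO. The 6 hr and 24 hr arrays of Th1 cells with DMSO or JQ1 lie on different slides, so time and slide cannot be told apart in these changes.

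Across the 24 arrays the closest pair among the 8 genes was Atf4 and Herpud1 (Pearson r = 0.97), then Atf4 with Hspa5, Ddit3 with Trib3 and Xbp1 with Herpud1 (each 0.93). All values of Atf4 here are of its brighter probe, which had r = 0.76 with the dimmer one over these arrays. All arrays share the reference RNA, and much of this comes from flavopiridol: over the other 16 arrays r was 0.78, 0.83, 0.83 and 0.41. On those 16 arrays the closest pairs were Chac1 with Herpud1 (0.94) and Asns with Chac1 (0.91), while Xbp1 went against Ddit3 (-0.65) and Trib3 (-0.55). Among 8804 further genes above background on every array, those most like Atf4 were Btg1 (0.982) and Cbll1 (0.979), and most like Xbp1 were Rpf1 (0.992) and Wdr73 (0.99). Herpud1 was followed by Ifrd1 (0.974) and Kdm5c (0.972), Chac1 by Dusp16 (0.971) and the cysteinyl-tRNA synthetase gene Cars (0.969), and Hspa5 by Ythdf2 (0.958) and Gadd45g (0.957). Chac1 was above background in Cy3 on 16 of the arrays and in Cy5 on none, so its r values rest in part on background. Trib3 was followed by Klhl28 (0.956) and Sin3a (0.954), Ddit3 by Il20rb and Dubr (each 0.954), and Asns, the least matched, by Gorasp2 (0.928) and Sinhcaf (0.901).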

How the data were processed

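The deposited scanner files, made by the authors with Agilent Feature Extraction 10.7.1.1 (grid built on mm9, per the file headers), hold spot intensity in Cy3 and Cy5 before normalization and a log10 ratio of red over green. A deposited table of the authors holds log2 ratios whose normalization is not given in the sources used here. It matched the values below with r of 0.981 to 0.996. Median spot intensity was corrected with normexp (offset 50) and loess-normalized within each array (limma 3.58.1, R 4.3.3), outlier spots were left out, and probes were averaged. Repeated spots had an SD of 0.091 to 0.11 log2. Probes were named through RefSeq accessions: 26425 by accession, 12 by name, 29244 unnamed. The brightest probe stood for a gene.

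A gene entered a fit if 3 or more of its arrays had Cy3 well above background (lmFit, eBayes, Benjamini-Hochberg over all genes, called below 0.05), and the fit was tested on simulated data. Named genes are the 8 members, the called gene of each list with the largest rise and with the largest fall, and the 2 genes most like each member. A gene that this rule names is not reported here. The members and lists were chosen with earlier results of these data known. The number of arrays limits the precision.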

Additional observations from a re-analysis of the deposited data

Results flagged for a closer look

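A difference in drug effect between reactivated and unstimulated cells passed the test for 4 of the 8 genes. Under 10 µM flavopiridol the effect on reactivated cells minus that on unstimulated cells was -1.69 for Asns (adjusted p = 0.019), -1.44 for Hspa5 (adjusted p = 0.0365) and -1.41 for Xbp1 (adjusted p = 0.024). Under 500 nM JQ1 it was 1.25 for Trib3 (adjusted p = 0.043), -1.27 for Hspa5 (adjusted p = 0.0368) and -0.93 for Xbp1 (adjusted p = 0.0056), all by limma over 12 arrays. Both sets are taken against the same 4 DMSO arrays, so Hspa5 and Xbp1 in both are not independent. Each condition is 1 array, and the explanation of these differences was not tested. No group held enough arrays to look for an array far from the others of its group.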

How the results depend on the processing

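Where a setting changed the number of the 8 genes called past 1.5 times, it did so in 4 comparisons. For 500 nM JQ1 against DMSO, 2 genes called higher (Atf4 and Ddit3) became 1 called lower (Xbp1) after shifting loess ratios to the spike-in controls, 2 called lower with spike-in centring (Xbp1 and Herpud1) and 0 without the context block. For 500 against 50 nM JQ1, 0 became 2 called lower with spike-in centring (Asns and Xbp1). It became 1 called higher with Cy3 alone, the authors' table, the mean of probes, genes above background on all arrays, or the second probe of Atf4 (chosen after seeing the data). Leaving out 1 array gave 0 to 4. For the flavopiridol effect by state, 3 became 0 with median centring, spike-in centring, the spike-in shift, the scanner software's log ratio, or only the 8 arrays of DMSO and the higher dose, and leaving out 1 array gave 0 to 3. For the JQ1 effect by state, 1 called higher and 2 called lower became 6 called lower with either spike-in scaling, where most genes were called lower. They became 1 called lower with the software's log ratio, no background correction or 8 arrays, and leaving out 1 array gave 1 to 5. The cause was not tested.

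Signs turned with scaling for these values, called in the main setting or the alternative. For 10 µM flavopiridol they were Shmt2 (-0.08 with median and -0.67 with spike-in centring), Pdia3 (-0.05 and -0.63), Spcs3 (-0.06 and -0.64), Os9 (-0.14, -0.72 and -0.24 with the spike-in shift) and Eif2s3x (-0.45, -1.04 and -0.07). For 500 nM JQ1, Herpud2 had -0.13 and -0.11 and Ppp1r15a -0.09 and -0.05 with spike-in centring and shift. For the JQ1 effect by state, Chac1 had -0.99 and -1.18, Herpud1 -0.93 and -0.99, and Trib3 -0.01 with the shift. Among values called in neither, several turned too, such as Asns with the software's log ratio (0.53 at 10 and 0.31 at 1 µM flavopiridol). Ddit3 turned in the JQ1 effect by state with spike-in centring and shift (-0.65 and -0.78). Over the other settings Asns reached 0.39 for flavopiridol against JQ1 and Chac1 reached -0.53 for 500 nM JQ1 against DMSO. For 500 against 50 nM JQ1, Ddit3 reached -0.04 and Atf4 -0.09. Trib3 and Hspa5 turned for 500 nM JQ1 against DMSO with spike-in centring (-0.22 and -0.14) and shift (-0.17 and -0.16). Leaving out 1 array, Chac1 ran from -0.79 to 0.97 in the JQ1 effect by state.

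Calls over all genes moved too. With median centring, spike-in centring and spike-in shift in that order, they were 380, 48 and 229 higher and 7754, 10572 and 7564 lower for 1 µM flavopiridol (2017 and 4405 as reported), 373, 10 and 6 higher and 4271, 4487 and 3395 lower for 500 against 50 nM JQ1 (1383 and 2653), 896, 264 and 730 higher and 6955, 7637 and 4147 lower for flavopiridol against JQ1 (3000 and 4448), 223, 7 and 4 higher and 781, 10412 and 11293 lower for the JQ1 effect by state (581 and 728), and 636, 74 and 16 higher and 321, 177 and 100 lower for the flavopiridol effect by state (1107 and 862). For the flavopiridol effect by cell type the spike-in scalings gave 1536 and 556 genes higher (0 as reported). Without the context block 500 nM JQ1 gave 361 and 538, and 50 nM gave 0 (33 and 11 as reported).

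Counts of members called stayed within 1.5 times of the main count for reactivation (6 to 7 without 1 pair, though single calls of Ddit3, Chac1 and Herpud1 changed), flavopiridol at either dose and flavopiridol against JQ1 (7 without any 1 array). Slide as a random block was not run for reactivation, where both arrays of a pair lie on the same slide. It was also not run for both effects by cell type, where slide cannot be told apart from the cell type of the treated arrays. No paired analysis was possible because every condition has 1 array, beyond the pair and context blocks. Spike-in ratios after loess ran from -1.08 to -0.406 on DMSO arrays and from -0.306 to 0.617 on flavopiridol arrays, so levels per cell are not given by these ratios.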
